A study of Mus musculus with 13 samples.

Results

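The miR-379 to miR-410 cluster is a dense row of microRNA genes at the imprinted Dlk1-Dio3 locus of mouse chromosome 12. Its members were taken by name: every mouse miRNA on the array carrying 1 of 34 cluster numbers, in either arm form. This gave 67 mature miRNAs of the 1079 mouse miRNAs measured. Of the 67, 23 were detected in no tumour, 37 were detected in all 13, and 43 passed the filter of detection on at least 6 arrays and could be tested. The numbering takes in miR-299 through its 3p form only, because the other form on the array is named miR-299b-5p.

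Mature miRNAs are short RNAs that pair with target transcripts, mainly through a seed near the 5′ end, and lower their stability or translation. The Dlk1-Dio3 domain is imprinted: protein-coding genes such as Dlk1 are read from the paternal chromosome, while the cluster is read from the maternal chromosome as part of a long non-coding transcript that includes Mirg. Several of the miRNAs are known from neurons, where activity switches the cluster on through Mef2 and where miR-134, miR-329 and miR-381 act in dendrite growth. The sympathetic lineage, from which neuroblastoma arises, is itself neuronal.

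The tumours were primary abdominal neuroblastomas of TH-MYCN mice, in which a transgene expresses MYCN under the tyrosine hydroxylase promoter of catecholamine cells. The groups were 6 tumours with wild-type caspase-8 and no metastasis to bone marrow, and 7 caspase-8-deficient tumours with metastasis to bone marrow. Both groups carried the MYCN transgene. Caspase-8 is a protease that starts cell death when death receptors are engaged. Genotype and metastasis changed together and cannot be told apart. The sources used here do not give how caspase-8 was lost, nor the age or strain background of the mice. The labels call the tumours biological replicates without tying them to animals, so p-values measure the spread between these samples.

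Each tumour was read on 1 Agilent array of 1 colour, and levels below are log2 values after scaling each array to a common 75th percentile, with a floor of 4.10. A difference of 1 on this scale is a factor of 2. Levels of different miRNAs are not set against each other, because probes differ in brightness. Between 338 and 469 mouse miRNAs were detected in a tumour, of which 37 to 44 were cluster members. The arrays came from 2 slides, with 2 wild-type beside 5 deficient tumours on slide 1 and 4 beside 2 on slide 2. Of the sympathetic and neuronal list, called neuronal below, miR-124-3p, miR-375-3p, miR-7a-5p and miR-9-5p were detected in all 13 tumours, and 12 of 25 forms on every array. Tumour RNA is a bulk mixture, in which fewer cells of a type and less RNA per cell cannot be told apart. Wild-type replicate 4 stood apart for the cluster, and wild-type replicate 1 and deficient replicates 3 and 4 for skeletal muscle miRNAs. The main counts and medians of the group differences, and the members' median correlation, are given with and without these tumours. So is each described member's difference where leaving them out moved it by over 1.5 times. Correlations of pairs of members, and those by brightness, are given over all 13 tumours only.

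The mature sequences of the members with neuronal roles, of the miR-376 family, of the 2 ends of the cluster and of the miRNAs closest to them in sequence follow, because these are the molecules the comparisons below turn on. They are from RefSeq on GRCm38.p6, 5′ to 3′, with the seed (bases 2 to 8) in capitals. Of the 67 members 60 matched an entry there, and miR-376c-3p was among those that did not.
miR-379-5p: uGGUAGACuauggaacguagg
miR-411-5p: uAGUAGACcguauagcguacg
miR-379-3p: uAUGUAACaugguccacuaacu
miR-411-3p: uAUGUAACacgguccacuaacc
miR-134-5p: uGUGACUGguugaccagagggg
miR-329-3p: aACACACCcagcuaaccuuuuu
miR-381-3p: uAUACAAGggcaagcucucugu
miR-300-3p: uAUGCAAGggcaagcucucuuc
miR-485-3p: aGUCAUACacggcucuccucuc
miR-495-3p: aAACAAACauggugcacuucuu
miR-541-5p: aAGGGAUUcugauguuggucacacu
miR-376a-3p: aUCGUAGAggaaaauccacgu
miR-376b-3p: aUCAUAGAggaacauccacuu
miR-494-3p: uGAAACAUacacgggaaaccuc
miR-539-5p: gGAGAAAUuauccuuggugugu
miR-410-3p: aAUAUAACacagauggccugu

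The 38 tested members with a sequence carried 37 distinct seeds, so the cluster delivers many seeds rather than 1. The only seed that tested members shared, AUGUAAC, belonged to miR-379-3p and miR-411-3p, which differ by U10C and U22C (counted from 1 at the 5′ end, miR-379-3p first). The 5p forms of the same neighbours differ within the seed by G2A and at 6 other bases. miR-381-3p and miR-300-3p are alike except for A4G in the seed, G21U and U22C. miR-376a-3p and miR-376b-3p differ by G4A in the seed, A13C and G20U. How far probes of such pairs read each other's miRNA was not tested.

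Both arms were measured for 33 of the 34 numbers, but the arms were unequally present. The tested forms were 27 of the 34 3p forms and 16 of the 33 5p forms, and 14 hairpins had both arms tested. No form of miR-544, miR-654, miR-668, miR-679 or miR-758 was tested. miR-758, which represses the cholesterol exporter Abca1, was detected on no array in either form. miR-134-3p was detected in 3 deficient tumours and 0 wild-type tumours, at levels of 4.10 to 4.74 in the deficient and 4.10 to 4.65 in the wild-type group, which overlap just above the floor.

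The question of the design was whether the cluster differed between deficient, metastatic tumours and wild-type tumours without metastasis. None of the 43 tested members passed limma's test (two-sided, Benjamini-Hochberg adjusted p under 0.05 over all 419 tested mouse miRNAs), against a background of 0% of all tested miRNAs called. At an unadjusted p under 0.05 the count was 0 of 43 members, where the background was 3.82% (16 of 419). No member separated the groups, that is, had all tumours of 1 group above all of the other, where the background was 0.239% (1 of 419, miR-598-3p). The smallest adjusted p of a member was 0.589, and over 30 alternative settings the smallest lay between 0.166 and 0.976.

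The members leaned to higher values in deficient tumours by a small amount, and the lean turned within slide 1, with normexp, with array weights and without wild-type replicate 4. Of the 43 tested members, 28 had a higher and 15 a lower mean in the deficient group, and the median difference, deficient minus wild type, was 0.09. Of all 419 tested miRNAs 227 were higher, and their median was 0.04. Without scaling, 39 members were higher with a median of 0.28, while the median of all tested miRNAs moved to 0.23. With normexp background correction the lean turned: 19 members were higher with a median of −0.04, beside a median of −0.06 for all tested miRNAs. With array weights it turned too, to 15 members higher and a median of −0.06, beside 0.03 for all tested miRNAs. Without wild-type replicate 4 the median was −0.03 and 20 members were higher.

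Within slides the direction was opposite. On slide 1 the median member difference was −0.20 and 39 of 43 members were lower in deficient tumours, whereas on slide 2 it was 0.18 and 33 of 43 were higher. With slide as a block it was 0.02, with 25 higher. On either slide, 1 group is represented by only 2 tumours. No member passed the test in any of these fits.

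The intervals of the differences show what the 13 arrays could resolve. The 95% interval lay within a factor of 2 in both directions for 39 of the 43 members and within a factor of 1.5 for 22. Its half-width ran from 0.29 to 1.19 on the log2 scale, with a median of 0.42. For most members a doubling or halving of the group mean was therefore outside the interval, and for 22 of them so was any change beyond 1.5-fold. These counts include members with floored values. The narrowest interval was that of miR-412-3p, with 10 of 13 values at the floor, and miR-412-5p, with 9 there, was among the 39. Intervals of such members describe floored levels and do not bound a change below the floor. Differences that lie inside an interval remain compatible with these arrays. The smallest difference that could have been detected was not computed.

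**Figure D1:**
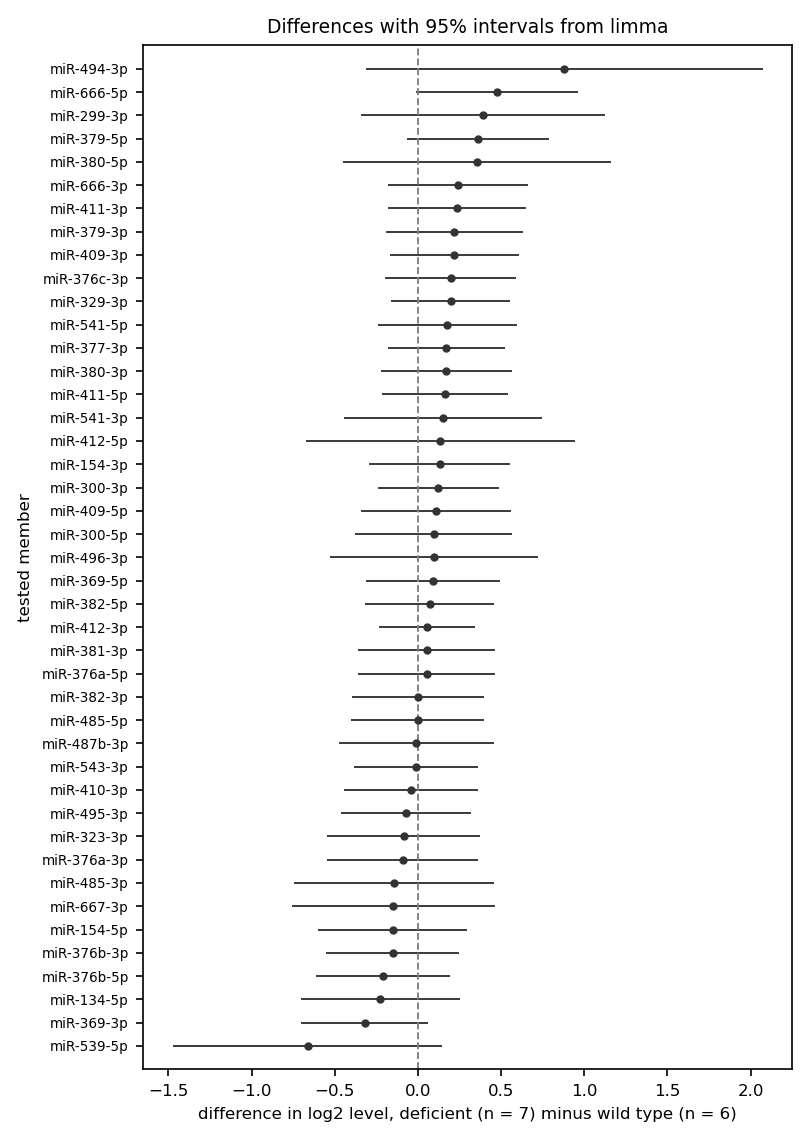
Difference in mean log2 level, deficient (n = 7) minus wild type (n = 6), for each of the 43 tested members, with points at the limma estimate and lines spanning its 95% interval. The points run from −0.66 (miR-539-5p) to 0.88 (miR-494-3p), and all 43 intervals cross the dashed line at 0.

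miR-379-5p, from the first hairpin of the row, had 1 of the smallest unadjusted p-values. Its level ran from 9.69 to 10.78 with a median of 10.21 in wild-type tumours, and from 10.30 to 10.75 with a median of 10.63 in deficient tumours. The deficient values all lay inside the wild-type range, whose low end was set by wild-type replicates 4 and 6. The difference was 0.36 ± 0.20 (SE), or 1.29-fold with a 95% interval of 0.957 to 1.73 (limma adjusted p = 0.589). On slide 1 alone it was −0.13, on slide 2 alone 0.61, and with wild-type replicate 4 left out 0.26.

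The other forms at this end went with it. miR-411-5p, from the next hairpin, followed miR-379-5p over the 13 tumours with a Pearson correlation of 0.914, and miR-411-3p followed miR-379-3p with 0.882. Over all 13 tumours the 4 forms were higher in the deficient group by 0.36 (miR-379-5p), 0.22 (miR-379-3p), 0.16 (miR-411-5p) and 0.23 (miR-411-3p), and none passed the test. The slides disagreed on the direction. In the same order the differences were −0.13, −0.16, −0.22 and −0.06 within slide 1, and 0.61, 0.58, 0.43 and 0.34 within slide 2.

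miR-410-3p, from the last hairpin, showed no such lean over all 13 tumours. Its level ran from 11.74 to 12.70 (median 12.32) in wild-type and from 11.87 to 12.54 (median 12.17) in deficient tumours. The difference was −0.04 ± 0.19 (SE), with an interval of 0.734-fold to 1.28-fold (limma adjusted p = 0.970). Leaving out 1 tumour moved it to −0.15 (wild-type replicate 4) or 0.04 (wild-type replicate 3). Leaving out the scaling adds 0.19 to the difference of every described member above the floor, and so makes a value this close to 0 positive (0.15).

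miR-134-5p limits dendritic spine size by repressing Limk1. In wild-type replicate 4 it was high where most members were low. Its level ran from 9.43 to 10.76 (median 9.60) in wild-type tumours and from 9.05 to 9.70 (median 9.63) in deficient tumours. Wild-type replicate 4 was the highest of all at 10.76 and deficient replicate 1 the lowest at 9.05, and the other 11 tumours lay between 9.43 and 9.86. The difference was −0.23 ± 0.22 (SE; limma adjusted p = 0.703) and shrank to −0.03 without wild-type replicate 4.

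miR-329-3p, which acts with miR-134 in activity-driven dendrite growth, was nearly constant in the deficient group. It ran there from 10.34 to 10.62 (median 10.39), and from 9.66 to 10.499 (median 10.38) in wild-type tumours, where replicates 4 and 6 were the 2 low ones. The SD was 0.09 in the deficient and 0.33 in the wild-type group. This was not particular to miR-329-3p: 34 of the 43 members had the larger SD in the wild-type group, and 29 did without wild-type replicate 4. For miR-369-5p the SDs were 0.09 and 0.42. The difference was 0.20 ± 0.17 (SE), or 1.15-fold (0.893 to 1.47; limma adjusted p = 0.668), and 0.08 without wild-type replicate 4.

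miR-381-3p, the third of these dendrite miRNAs, ran from 8.48 to 9.64 (median 9.14) in wild-type and from 9.04 to 9.46 (median 9.12) in deficient tumours. The wild-type range enclosed the deficient one. The difference was 0.05 ± 0.19 (SE; limma adjusted p = 0.960), and leaving out wild-type replicate 4 made it −0.08. Leaving out the 3 tumours with high muscle miRNAs made it 0.08. miR-300-3p, which differs from miR-381-3p at 3 bases, followed it with a correlation of 0.857.

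miR-485 is known for repressing SV2A, a synaptic vesicle protein, through its 5p form. That form was dim, with group means of 4.99 in both groups. Of the brighter miR-485-3p, levels ran from 6.68 to 7.56 (median 7.05) in wild-type and from 5.81 to 7.66 (median 7.12) in deficient tumours. Deficient replicate 2 was the lowest and deficient replicate 5 the highest. The difference was −0.15 ± 0.28 (SE; limma adjusted p = 0.890), and 0.05 without deficient replicate 2. The 2 arms of this hairpin had a correlation of −0.180, the lowest of the 14 hairpins with both arms tested.

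miR-495-3p ran from 10.74 to 11.92 (median 11.44) in wild-type and from 11.14 to 11.60 (median 11.28) in deficient tumours. The difference was −0.07 ± 0.18 (SE; limma adjusted p = 0.915). Both its extremes were wild-type tumours, replicate 4 at the bottom and replicate 3 at the top. The value was 0.12 with no scaling, −0.04 without the 3 tumours with high muscle miRNAs, and −0.20 or 0.03 when wild-type replicate 4 or 3 was left out. miR-541-5p ran from 9.10 to 10.24 (median 9.84) in wild-type and from 9.67 to 10.16 (median 9.94) in deficient tumours. The difference was 0.18 ± 0.19 (SE; limma adjusted p = 0.729), or 0.05 with wild-type replicate 4 left out and 0.29 without the 3 tumours with high muscle miRNAs.

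Of the 12 forms on the neurite and synapse list (miR-134, miR-329, miR-381, miR-485, miR-495 and miR-541) 8 were tested, 4 were higher and 4 lower in the deficient group, and 0 passed the test. Their median difference was 0.03, beside 0.04 for all tested miRNAs.

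The miR-376 family is known for A-to-I editing of its precursors, which can fall in the seed, and arrays of this kind read edited and unedited forms by hybridisation without separating them by sequence. miR-376a-3p ran from 11.16 to 12.12 (median 11.59) in wild-type and from 11.05 to 11.91 (median 11.53) in deficient tumours. miR-376b-3p ran from 11.74 to 12.95 (median 12.38) in wild-type and from 12.02 to 12.33 (median 12.28) in deficient tumours. miR-376c-3p ran from 9.82 to 10.67 (median 10.18) in wild-type and from 10.14 to 10.68 (median 10.30) in deficient tumours. The groups overlapped for all 3 forms, and wild-type replicate 4 was the lowest wild-type tumour in each.

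The differences were −0.09 ± 0.21 for miR-376a-3p, −0.15 ± 0.19 for miR-376b-3p and 0.20 ± 0.18 for miR-376c-3p (SE; limma adjusted p = 0.915, 0.754 and 0.674). Leaving out wild-type replicate 4 gave −0.18, −0.28 and 0.12. Leaving out replicate 3 of that group gave 0.01 and −0.03 for the first 2, and leaving out its replicate 1 gave 0.29 for miR-376c-3p. Without scaling the first 2 were positive, at 0.10 and 0.04, by the shift shared by members above the floor. The 3 forms did not follow each other equally. The correlation over the 13 tumours was 0.678 between miR-376a-3p and miR-376b-3p, 0.444 between miR-376a-3p and miR-376c-3p, and 0.370 between miR-376b-3p and miR-376c-3p. By contrast the 2 arms of miR-376b had the highest arm-to-arm correlation, 0.963.

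The member with the smallest unadjusted p-value was miR-666-5p, a dim form. It ran from 5.08 to 6.05 (median 5.32) in wild-type and from 5.45 to 6.46 (median 6.08) in deficient tumours. Wild-type replicates 1 and 4 reached into the deficient range, and the other 4 wild-type tumours lay below every deficient tumour. The difference was 0.48 ± 0.23 (SE), or 1.39-fold with an interval of 0.990 to 1.95 (limma unadjusted p = 0.056, adjusted p = 0.589). On slide 1 alone it was 0.43 and on slide 2 alone 0.56, but with normexp background correction it was −0.04.

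miR-494-3p had the largest difference and the largest spread of the members. Its level ran from 11.13 to 13.42 (median 11.84) in wild-type and from 11.40 to 15.16 (median 12.50) in deficient tumours, a range of 4.03 over all 13. Deficient replicates 2 and 5 were highest, at 15.16 and 13.95, and wild-type replicate 5 came next at 13.42. The difference was 0.88 ± 0.55 (SE), or 1.84-fold with an interval of 0.807 to 4.20 (limma adjusted p = 0.607). The value was 1.56 on slide 1, 0.08 on slide 2, and 0.51 once deficient replicate 2 was left out.

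miR-539-5p had the lowest difference. It ran from 6.28 to 7.50 (median 6.98) in wild-type and from 5.09 to 7.76 (median 6.21) in deficient tumours. Deficient replicate 4 held the highest value of all and deficient replicate 2 the lowest, so the deficient group spanned the wild-type one. The difference was −0.66 ± 0.38 (SE), or 0.631-fold with an interval of 0.360 to 1.11 (limma adjusted p = 0.589). Slides 1 and 2 gave −0.43 and −0.42, and slide as a block −0.43, all smaller in size than the pooled −0.66. Leaving out deficient replicate 4 gave −0.90.

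miR-369-3p and miR-299-3p, both dim, completed the extremes. miR-369-3p ran from 5.28 to 6.04 (median 5.48) in wild-type and from 4.93 to 5.71 (median 5.19) in deficient tumours. The difference was −0.32 ± 0.18 (SE; limma adjusted p = 0.589), with −0.32 on slide 1 and −0.08 on slide 2. miR-299-3p ran from 4.34 to 6.23 (median 5.41) in wild-type and from 4.88 to 6.28 (median 5.90) in deficient tumours. The difference was 0.39 ± 0.34 (SE; limma adjusted p = 0.668), with opposite signs on slide 1 (−0.38) and slide 2 (0.90).

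At the other end of the scale, miR-412-3p, miR-377-3p and miR-300-3p varied least over the 13 tumours. miR-412-3p did so because 10 of its 13 values sat at the floor, and the others were wild-type replicate 1 (4.24) and deficient replicates 3 (4.22) and 4 (4.52). Its difference was 0.05 ± 0.13 (SE; limma adjusted p = 0.915). miR-377-3p was bright and ran from 9.45 to 10.26 (median 9.99) in wild-type and from 9.91 to 10.24 (median 10.13) in deficient tumours. miR-300-3p ran from 11.45 to 12.27 (median 12.08) in wild-type and from 11.86 to 12.22 (median 12.20) in deficient tumours. Their differences were 0.17 ± 0.16 and 0.12 ± 0.17 (SE; limma adjusted p = 0.684 and 0.805). Once the lowest tumour of both, wild-type replicate 4, was left out, they were 0.07 and 0.01.

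miR-380-5p, which represses p53 and has been studied in neuroblastoma, was detected in 8 tumours, 3 wild-type and 5 deficient. Its values ran from the floor of 4.10 to 5.55 (median 4.18) in wild-type and from 4.10 to 6.37 (median 4.72) in deficient tumours. Wild-type replicate 1 and deficient replicates 4 and 1 were high, and 5 tumours were at the floor. The difference was 0.36 ± 0.38 (SE; limma adjusted p = 0.729), and 0.09 without deficient replicate 4. On slide 1 alone it was −0.46 and on slide 2 alone 1.57, the largest member difference within that slide. The 3p arm of the same hairpin was bright in every tumour and followed the 5p arm with a correlation of 0.737.

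miR-412-5p, miR-412-3p and miR-496-3p, a set named after its values were seen, were highest in the same 3 tumours. Wild-type replicate 1 and deficient replicates 3 and 4 held the 3 highest values of miR-412-5p (5.68, 5.04 and 6.13, against 4.10 to 4.25 elsewhere), of miR-412-3p and of miR-496-3p (7.47, 7.46 and 8.16, against 6.28 to 7.35). These 3 tumours also had the most skeletal muscle miRNA: the mean level of the 4 tested muscle miRNAs (of 9 on the array) was 9.49 to 10.6 in them and 4.48 to 7.23 in the other 10. Over the 13 tumours the correlation with that mean was 0.911 for miR-412-5p, 0.846 for miR-496-3p and 0.830 for miR-412-3p, while its median over the 43 members was 0.218. In all, 6 of the 43 members (14.0%) had every 1 of these 3 tumours above the other 10, against 12 of all 419 tested miRNAs (2.86%), which include the 4 muscle miRNAs by which the tumours were told apart. The part of muscle tissue in these values was not tested. Without the 3 tumours the median member difference was 0.08, 28 members were higher, and 0 were called.

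**Figure D2:**
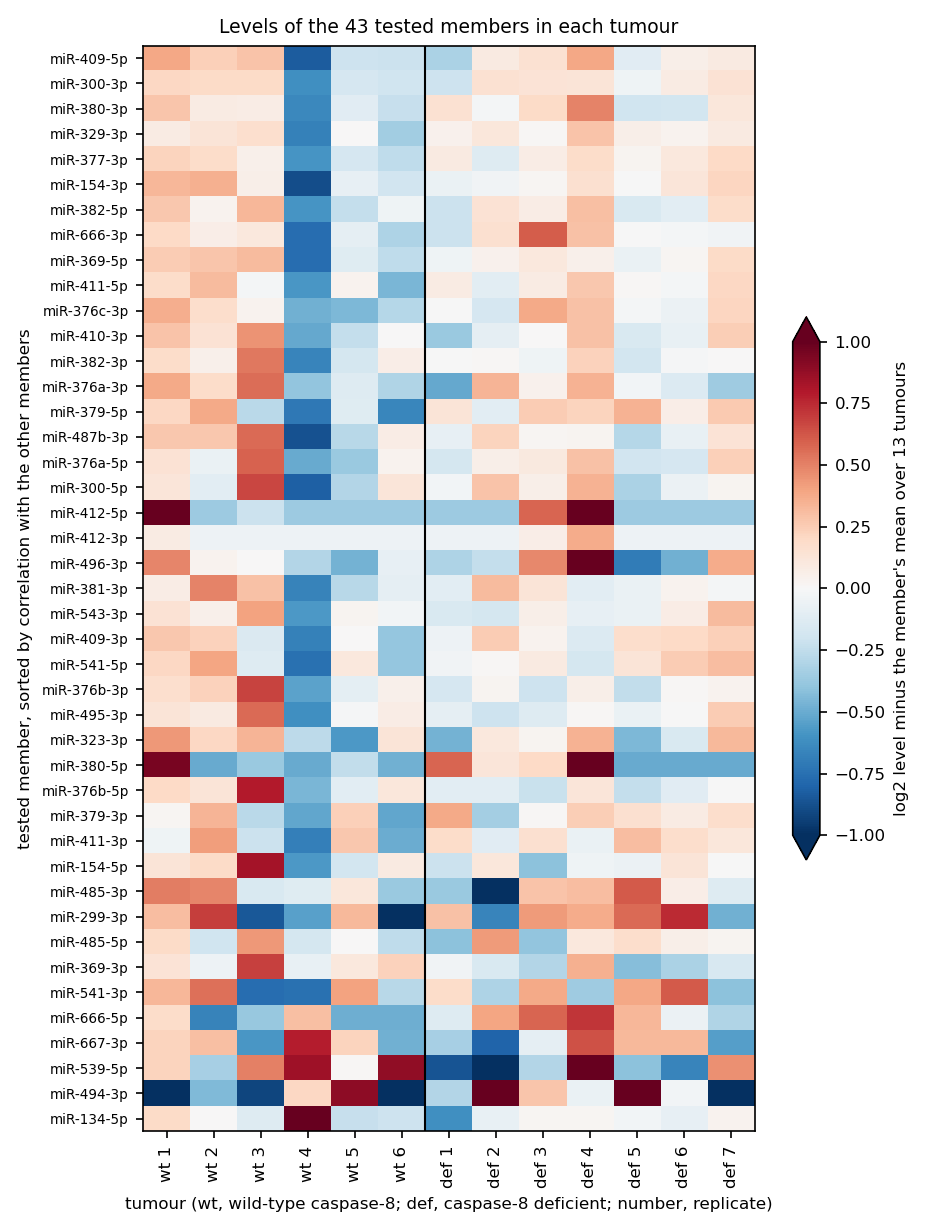
Log2 level of each of the 43 tested members in each of the 13 tumours, minus the member's mean over all tumours (colour, cut at 1 and −1); rows are sorted by correlation with the other members and the black line divides wild-type from deficient tumours. Wild-type replicate 4 is blue in most rows, and miR-134-5p, miR-494-3p, miR-539-5p and miR-667-3p at the bottom do not share that pattern.

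Seen by tumour rather than by miRNA, the tumours with the extreme cluster means were of both groups. In each of them most members lay on the same side of their own median. The mean level of the 43 tested members ran from 8.19 to 8.83 in wild-type tumours and from 8.48 to 8.91 in deficient tumours. Wild-type replicate 4 was lowest at 8.19, wild-type replicate 6 next at 8.39, and deficient replicate 4 highest at 8.91. The group means were 8.56 ± 0.24 (SD, n = 6) and 8.64 ± 0.13 (SD, n = 7), and their ranges overlapped.

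In wild-type replicate 4, 26 of the 43 members had their lowest level of all 13 tumours, and 36 were below their own median. In wild-type replicate 1, 39 members were above their median. Wild-type replicate 3 held the highest level of 15 members, and deficient replicate 4 that of 8. Wild-type replicate 4 also had the lowest mean of the MYCN target list (8.57), a neuronal mean of 7.40 against 7.02 to 8.55 over all tumours, and a leukocyte mean of 8.09 against 6.67 to 9.17. It had 448 detected mouse miRNAs. The part of tumour content in its low cluster values was not tested.

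The share of the summed mouse miRNA signal on the array that came from the 67 members had the same tumour at the bottom. The wild-type mean was 7.24 ± 2.01% (SD, n = 6) and the deficient mean 7.30 ± 1.02% (SD, n = 7). Wild-type replicate 4 was lowest at 3.91% and wild-type replicate 3 highest at 9.51%, and the deficient tumours lay between 6.27% and 8.55%. This share does not depend on the scaling between arrays, but it is dominated by the brightest probes.

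**Figure D3:**
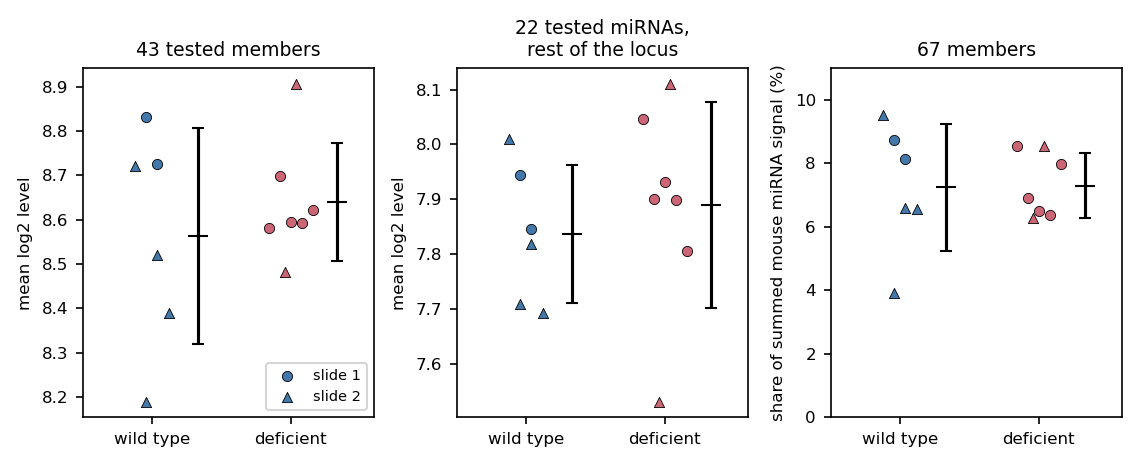
One point per tumour by group, for the mean log2 level of the 43 tested members, the mean log2 level of 22 tested miRNAs from the rest of the locus, and the percent of summed mouse miRNA signal from the 67 members; circles are slide 1, triangles slide 2, and bars give mean ± SD. The groups overlap in all 3 panels, and the lowest wild-type triangle in the first and last panel is replicate 4 (8.19 and 3.91%).

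How closely the members moved together was described by correlating each tested member with the mean of the other tested members over the 13 tumours. The values have no p, because the points share arrays, scaling and the locus by which members were chosen. The median was 0.612 for the 43 members and −0.0114 for the 376 tested non-members against the members' mean. Of the members 30 were above 0.5 and 15 (34.9%) above 0.7, against 11 non-members (2.93%) above 0.7. Without wild-type replicate 4, 13 of the 43 members were above 0.7 and 2 below 0.

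The members that tracked the cluster best were miR-409-5p (0.954), miR-300-3p (0.881), miR-380-3p (0.877) and miR-329-3p (0.870). Those that did not were miR-134-5p (−0.362), miR-494-3p (−0.300), miR-539-5p (−0.092) and miR-667-3p (−0.059), the 4 members with a value below 0. Without wild-type replicate 4 these became 0.659, −0.350, 0.1999 and 0.418, so miR-494-3p alone of the 4 stayed below 0 and miR-134-5p left the cluster in that 1 tumour; miR-541-3p was then −0.142 in place of 0.199. The members made up 12.6% of the miRNAs that set the scaling. With scaling over non-members only, the medians were 0.727 for members and 0.0452 for non-members, and with no scaling 0.808 and 0.444. The member median was 0.485 without wild-type replicate 4, 0.451 within slide 1 (7 tumours), 0.674 within slide 2 (6 tumours) and 0.722 without the 3 tumours with high muscle miRNAs.

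**Figure D4:**
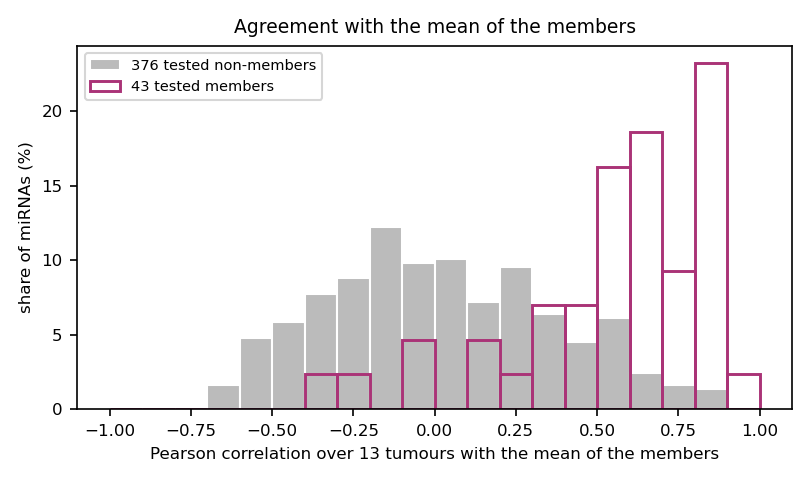
Share of miRNAs (percent, vertical axis) by Pearson correlation over 13 tumours with the mean of the members (horizontal axis), for 376 tested non-members (grey) and 43 tested members (outline; each against the mean of the other members). Members centre on a median of 0.612 with a tail below 0 of 4 members, and non-members on −0.0114.

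Arms of 1 hairpin, which are cut from the same precursor, had a median correlation of 0.714 over 14 pairs, and 13 of these were above 0. Members of different hairpins had a median of 0.382 over 889 pairs, of which 77.6% were above 0. For pairs of non-members these were 0.00321 and 50.3%, and for a member with a non-member the median was −0.0273. The closest pairs of different hairpins were miR-300-3p with miR-409-5p (0.965), miR-300-5p with miR-382-3p (0.951), miR-154-5p with miR-376b-3p (0.948) and miR-409-3p with miR-541-5p (0.947).

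The brightness of the probes moved with these values. The 22 brighter members had a median correlation of 0.690 with the rest, and the 21 dimmer ones 0.511. miR-412-5p, miR-412-3p and miR-380-5p, with 9, 10 and 5 of 13 values at the floor, have correlations that rest on few tumours.

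**Figure D5:**
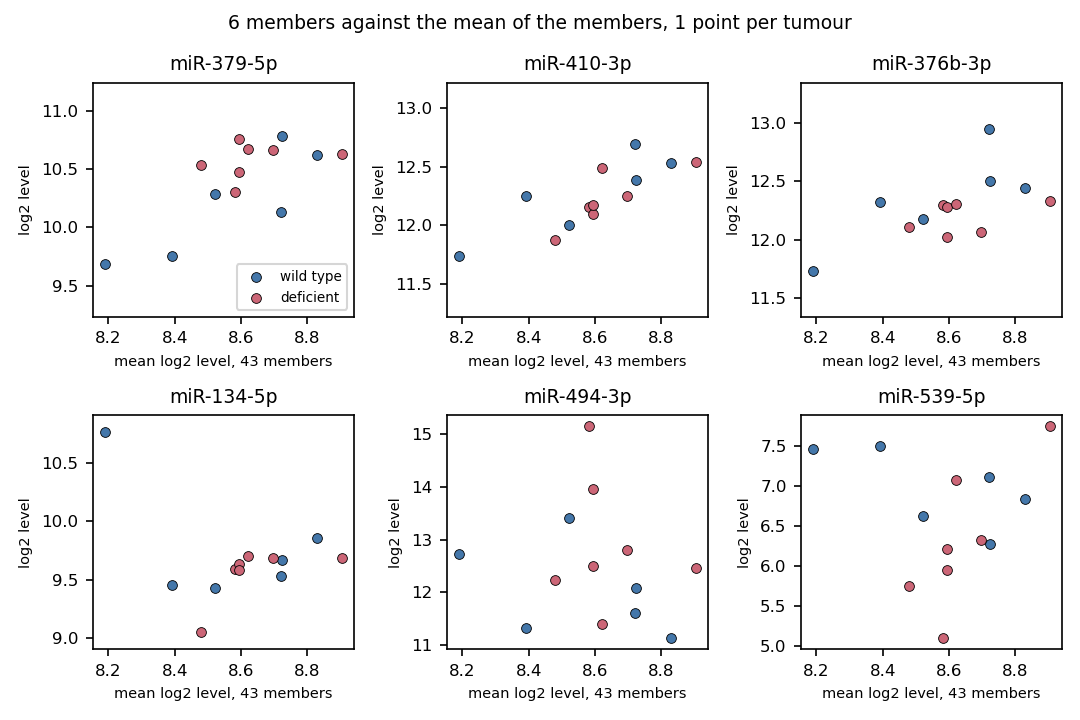
Log2 level of 6 members (vertical axes) against the mean log2 level of the 43 tested members (horizontal axes), 1 point per tumour, blue for wild type (n = 6) and red for deficient (n = 7). miR-379-5p, miR-410-3p and miR-376b-3p go up with the mean, and miR-494-3p and miR-539-5p show no steady rise. For miR-134-5p the highest point, 10.76, is the tumour with the lowest mean, wild-type replicate 4. Over all tumours the correlations of miR-379-5p, miR-410-3p and miR-376b-3p with the other members are 0.704, 0.794 and 0.581. Without wild-type replicate 4 they are 0.512, 0.689 and 0.335, and that of miR-134-5p is 0.659.

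Near and distant members of the row had similar correlations. RefSeq places 30 of the hairpins on the plus strand of chromosome 12, from Mir379 to Mir410. Members of hairpins at most 3 places apart had a median correlation of 0.429 (139 pairs), and those farther apart 0.401 (589 pairs). The first 15 hairpins gave 17 tested members with a median difference of 0.16, of which 10 were higher in the deficient group, and the last 15 gave 22 with a median of 0.06, of which 14 were higher. The difference between these stretches was not tested.

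The rest of the Dlk1-Dio3 locus holds further miRNAs from the maternal chromosome, among them miR-127, miR-431, miR-433 and miR-434, which lie antisense to the paternal gene Rtl1. Of its 42 forms on the array 22 were tested: 12 were higher and 10 lower in the deficient group, 0 passed the test, and the median difference was 0.02, with a range of −0.34 to 0.77. The mean of these 22 followed the mean of the cluster over the 13 tumours with a Pearson correlation of 0.706 and a Spearman correlation of 0.698. Without wild-type replicate 4 and deficient replicate 4, the tumours with the extreme cluster means, Pearson's value was 0.615. It was −0.143 within slide 1 (7 tumours) and 0.796 within slide 2 (6 tumours), so its sign was opposite on slide 1.

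Other measures moved with the cluster mean as well. Over all 13 tumours the neuronal list's mean had a Pearson correlation of 0.417 with it, the MYCN-driven list 0.504, the muscle list 0.494, the erythroid list −0.342, the stroma list −0.280, the leukocyte list −0.461 (Spearman −0.632) and the number of detected mouse miRNAs −0.305. Without the 2 tumours with extreme cluster means, erythroid and stroma miRNAs (−0.649 and −0.634) and the number detected (−0.649) were about as far from 0 as the rest of the locus, and the MYCN-driven list was 0.109. Within slide 1 and slide 2 the erythroid value was −0.628 and −0.332, the stroma value −0.283 and −0.251, and the number detected −0.241 and −0.0978. The muscle value was 0.788 and 0.530 within slides 1 and 2 (Spearman 0.821 and 0.143), and 0.474 without the 2 tumours with extreme cluster means. For other imprinted miRNAs (miR-335, miR-483, miR-296 and miR-298) it was 0.119 over all tumours. Their value was 0.542 without those 2 tumours, and 0.584 and 0.0702 within slides 1 and 2. These are descriptions over tumours that share arrays and scaling, and the part of cell content or of detection in the cluster's values was not tested.

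Among the 376 non-members, the 5 most like the mean of the cluster were miR-434-5p (0.889), miR-431-5p (0.863), miR-433-5p (0.849), miR-872-5p (0.838) and miR-540-3p (0.800), of which all but miR-872-5p belong to the rest of the locus. Of the 11 non-members above 0.7, 6 were of the rest of the locus, which supplied 22 (5.85%) of the non-members. The other 5 include miR-299b-5p (0.709), counted outside the locus by its name although it may lie in the cluster. For miR-434-5p the wild-type mean was 8.17 ± 0.42 (SD, n = 6) and the deficient mean 8.18 ± 0.13 (SD, n = 7).

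Lists of other cell types and programmes are given beside the cluster; their differences from it were not tested. Of the 16 tested neuronal miRNAs 4 were higher and 12 lower in deficient tumours, with a median of −0.29 and 3 past limma's unadjusted p of 0.05, where the background was 3.82%. All 9 tested miRNAs of the MYCN-driven list were higher, with a median of 0.24, and all 3 erythroid ones were higher, with a median of 0.95. Of all 419 tested miRNAs 227 were higher. The MYCN-driven list holds only arm forms of miR-17, miR-18a, miR-19a, miR-19b, miR-20a and miR-92a. The tested erythroid forms were miR-451, miR-144-3p and miR-144-5p. Whether forms within a list vary independently was not tested. Of the 7 tested stroma forms 6 were higher (median 0.28) and 1 passed the unadjusted threshold. Higher in the deficient group were also, of the 7 leukocyte forms, 2 (median −0.06), of the 4 muscle forms 2 (median −0.03), of the 3 adrenal cortex and liver forms 2 (median 0.05), and both endothelial forms (median 0.35). None of these list members passed the adjusted test. Erythroid means were 7.79 to 11.3 in wild-type and 9.76 to 11.7 in deficient tumours, and their part in the cluster's values was not tested.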

How the data were processed

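Each array's deposited scanner file gave 1 intensity per spot, already background-subtracted with Agilent Feature Extraction 10.7.3.1 per the file headers; the submitters' processing notes name version 10.5.1.1. Detection and outlier marks, also deposited, are other yes or no values per the file headers. The authors' deposited series matrix gave log2 values of equal distribution on every array (sorted columns within 0.00219, median 3.82; all 13 columns matched their own array best). The sources used here do not give how it was made. It was used as an alternative.

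Spots without outlier marks were averaged per probe and probes summed per miRNA. Arrays were scaled to a common 75th percentile, taken over 294 miRNAs detected on every array. A floor of 17.2 (percentile 1 of detected values) was set before log2 was taken. All 419 mouse miRNAs with detection on 6 or more arrays entered 1 limma fit (lmFit and eBayes of limma 3.58.1, run in R 4.3.3; files were read by the data.table package, release 1.17.8). Tests were two-sided with a Benjamini-Hochberg threshold of 0.05. The fit was also run on simulated data with independent normal noise for each miRNA, and the outcome is not reported here. That simulation held no slide effect, no floor and no correlation between miRNAs, so it does not bear on these features of the data. The number of arrays limits precision.

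Members and lists were chosen with earlier results of these data known. Full values are given for the 5 members with the smallest p, the 3 highest and 3 lowest differences, the 3 largest and 3 smallest SDs, and the brighter form of miR-134, miR-329, miR-381, miR-485, miR-495, miR-541, miR-376a, miR-376b, miR-376c, miR-379 and miR-410. The few other members given with values were chosen after these were seen. Alternatives covered scaling, background (normexp, offset 50, on median signals), floor, filter, probe summary, outlier marks, series matrix, slide, replicate number, array weights and each tumour left out. Leaving out the 3 tumours with high muscle miRNAs was added after seeing the data. Same-numbered tumours did not deviate together (correlations −0.220 to 0.194), and the labels name no pairing, so the main fit treated the tumours as unpaired. Low correlations cannot exclude a pairing.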

Additional observations from a re-analysis of the deposited data

Results flagged for a closer look

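Dixon's test for a value far from its group was run on the 20 members with full values and on 4 summaries of the cluster per tumour. In 48 groups in all it picked out 6 values. The usual chance rate of about 1 in 20 cannot be set against this count. The 20 members were partly chosen by their spread in these data, and miR-380-5p and miR-412-3p had 5 and 10 of 13 values at the floor. In wild-type tumours miR-134-5p was far above the others in replicate 4 (10.76, next 9.86), miR-380-5p in replicate 1 (5.55, next 4.35), and miR-412-3p in replicate 1 (4.24, all others at the floor of 4.10). In deficient tumours miR-134-5p was far below the others in replicate 1 (9.05, next 9.58), miR-412-3p far above in replicate 4 (4.52, next 4.22), and miR-329-3p far above in replicate 4 (10.62, next 10.44).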

How the results depend on the processing

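No member and no other tested miRNA was called in the main fit or under any of 30 alternatives; members at an unadjusted p under 0.05 numbered 0 to 3. The 13 arrays limit precision. Of 594 differences of the 20 members with full values 560 kept their direction, and miR-134-5p, miR-369-3p, miR-494-3p and miR-539-5p kept it in all that were run. miR-369-3p and miR-412-3p had no value where all tumours sat at the floor. miR-666-5p, miR-380-5p and miR-412-3p had none where detection on all 13 arrays was required. The cause of each turn was not tested. The median member difference, 0.09, was −0.20 within slide 1 and −0.03 to 0.15 with 1 tumour left out; the median correlation was 0.485 to 0.650 with 1 tumour left out. Without scaling, differences turned to 0.048 (miR-485-3p), 0.12 (miR-495-3p), 0.10 (miR-376a-3p), 0.041 (miR-376b-3p) and 0.15 (miR-410-3p). Scaled over non-members and over all mouse miRNAs, miR-410-3p was 0.015 and 0.00234. With normexp, miR-666-5p was −0.037, miR-299-3p −0.052, miR-380-5p −0.059 and miR-412-3p −0.11. With slide as a block miR-381-3p was −0.071. Within slide 1, differences were −0.13 (miR-379-5p), −0.38 (miR-299-3p), −0.46 (miR-380-5p), −0.044 (miR-412-3p), −0.15 (miR-377-3p), −0.10 (miR-300-3p), −0.046 (miR-329-3p), −0.21 (miR-381-3p), −0.14 (miR-541-5p) and −0.20 (miR-376c-3p). Within slide 2, miR-485-3p was 0.10 and miR-410-3p 0.034. With array weights, miR-380-5p was −0.20 and miR-381-3p −0.044. With 1 tumour left out, differences ran from −0.18 to 0.010 (miR-376a-3p), −0.075 to 0.16 (miR-381-3p), −0.15 to 0.043 (miR-410-3p), −0.00271 to 0.077 (miR-412-3p), −0.26 to 0.050 (miR-485-3p) and −0.20 to 0.033 (miR-495-3p). With the replicate number as a block, the replicate block fit called 0 members and 0 of all tested miRNAs, with 2 members and 63 miRNAs at an unadjusted p under 0.05, a median member difference of 0.07 and 28 members higher.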

Other observations

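The members with the lowest correlation to the cluster over all 13 tumours were closer to other miRNAs. miR-494-3p was closest over the 13 tumours to miR-709 (0.933), miR-5112 (0.910) and miR-1967 (0.903). miR-134-5p was closest to miR-3102-3p.2-3p (0.925), miR-149-3p (0.885) and miR-1971 (0.816), and miR-539-5p to miR-670-5p (0.969), miR-15a-3p (0.960) and miR-297c-5p (0.958). For miR-134-5p and miR-3102-3p.2-3p the highest tumour was wild-type replicate 4 (10.76 and 7.42). None of these is a cluster member, and with 13 tumours and 419 miRNAs such values are descriptions. Several were often undetected: miR-1967 was detected on 6 arrays, miR-15a-3p on 7, miR-1971 on 8, miR-670-5p on 9 and miR-297c-5p on 11. Their correlations rest in part on arrays without detection. miR-709 ran from 11.38 to 13.73 and was highest in deficient replicate 2, as was miR-494-3p.

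The median SD of a member over the 13 tumours was 0.31, the same as for the 22 tested miRNAs of the rest of the locus (0.31) and below that of the other 354 tested miRNAs (0.60). Without wild-type replicate 4 these medians were 0.26, 0.29 and 0.55. The SD was larger in the wild-type than in the deficient group for 34 of 43 members, with medians of 0.40 and 0.20, and for 233 of 376 non-members, with medians of 0.59 and 0.49. Without wild-type replicate 4 the counts were 29 of 43 and 176 of 376. These differences in spread were not tested.

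Of 38 tested members with a RefSeq sequence 39.5% began with A, against 22.4% of 281 other tested mouse miRNAs, while a first U was as common in both (42.1% and 40.6%). Their median GC content was 45.5%, against 50% in the others. Among the other imprinted miRNAs on the array (miR-335, miR-675, miR-483, miR-296 and miR-298), 6 of 10 forms were tested, and all 6 were lower in deficient tumours, with a median of −0.25; 0 passed the adjusted test.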
